A study of Mus musculus with 26 samples.

Results

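Genes that carry iron into the cell, store it, sense it and recover it from heme were followed through a 5-ethynyluridine (5-EU) pulse-chase in murine oligodendrocyte progenitor cells (OPCs) and oligodendrocytes (OLs). The set was chosen by gene symbol and names 10 genes: Trf, Tfrc, Steap3, Fth1, Ftl1, Ncoa4, Aco1, Ireb2, Fbxl5 and Hmox1. Of these, 9 were listed among 10103 genes (10104 transcripts, 1 for each gene in nearly all cases), with 8 listed for OPCs and 9 for OLs. Trf, which encodes the serum iron carrier transferrin, was not analysed here, and Steap3 was listed for OLs alone, so comparisons between the cell types cover 8 genes.

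All cells came from epiblast stem cells of 129S/SvEv male mouse embryos. OPCs were grown in a medium with bFGF and PDGFA, and OLs were obtained from them in a medium with noggin, IGF-1, cyclic AMP, NT3 and the thyroid hormone T3. OPCs and OLs at 40 h of differentiation took up 5-EU, a uridine analogue to which biotin can be coupled, for 24 h, and uridine then replaced it. Labelled RNA was pulled down on streptavidin at 0, 1, 2, 4 and 6 h of chase and sequenced in 3 biological replicates of OPCs and 2 of OLs, and each OL replicate matched one of the OPC replicates, with the numbers of the match not given.

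Cells take up transferrin-bound iron through the transferrin receptor, reduce it inside endosomes and keep the surplus in ferritin. When iron is scarce, the iron regulatory proteins IRP1 and IRP2 bind hairpins in mRNA called iron-responsive elements (IREs). On a 5′ untranslated region (UTR) this binding blocks translation, as in ferritin mRNAs, and on the 3′ UTR of the transferrin receptor mRNA it protects the message from decay. Oligodendrocytes are rich in iron and ferritin, and myelin synthesis depends on iron-containing enzymes.

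The hairpins were looked up in the annotated transcripts (GRCm38, GENCODE release M21) because they are the elements through which these messages are known to be controlled. The pattern, read on the transcript strand, was a C, 5 bases of an upper stem, the letters CAGTG, any base, and 5 bases that pair with the upper stem, with G-T pairs allowed. It spans 17 bases, and the capitals below mark the loop that the iron regulatory proteins contact. Both ferritin messages held 1 copy in the 5′ UTR, at chr19:9982738-9982754 on the forward strand in Fth1 and at chr7:45459785-45459801 on the reverse strand in Ftl1. The 3′ UTR of Tfrc held 4 copies on the forward strand, at chr16:32631225-32631241, chr16:32631604-32631620, chr16:32631669-32631685 and chr16:32631716-32631732.
Fth1: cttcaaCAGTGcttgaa
Ftl1: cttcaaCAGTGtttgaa
Tfrc, copy 1: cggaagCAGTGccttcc
Tfrc, copy 2: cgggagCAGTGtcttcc
Tfrc, copy 3: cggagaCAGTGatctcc
Tfrc, copy 4: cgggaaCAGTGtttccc

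Among all 10104 transcripts, 9 (0.0891%) held the pattern in the 5′ UTR and 70 (0.693%) in the 3′ UTR. Tfrc was the 1 transcript with more than 1 copy in its 3′ UTR. No match was found in the UTRs of Aco1, Ireb2, Fbxl5, Hmox1, Steap3 or Ncoa4, which says only that these letters are not there. Ireb2 had the longest 3′ UTR of the members, with 2789 bases, and the ferritins had the shortest, with 156 bases in Fth1 and 163 in Ftl1, against a median of 1096 over all transcripts. The share of AAA among lysine codons, one of the codon measures the study was about, was high in Tfrc (64%) and Ireb2 (60.3%), low in Hmox1 (18.8%), Steap3 (21.7%) and Ftl1 (22.2%), and 37.5% at the median of all transcripts. For UUU among phenylalanine codons, Ireb2 (67.3%) and Fth1 (66.7%) were highest and Steap3 (19.2%) lowest, against a median of 44.4%.

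**Figure D1:**
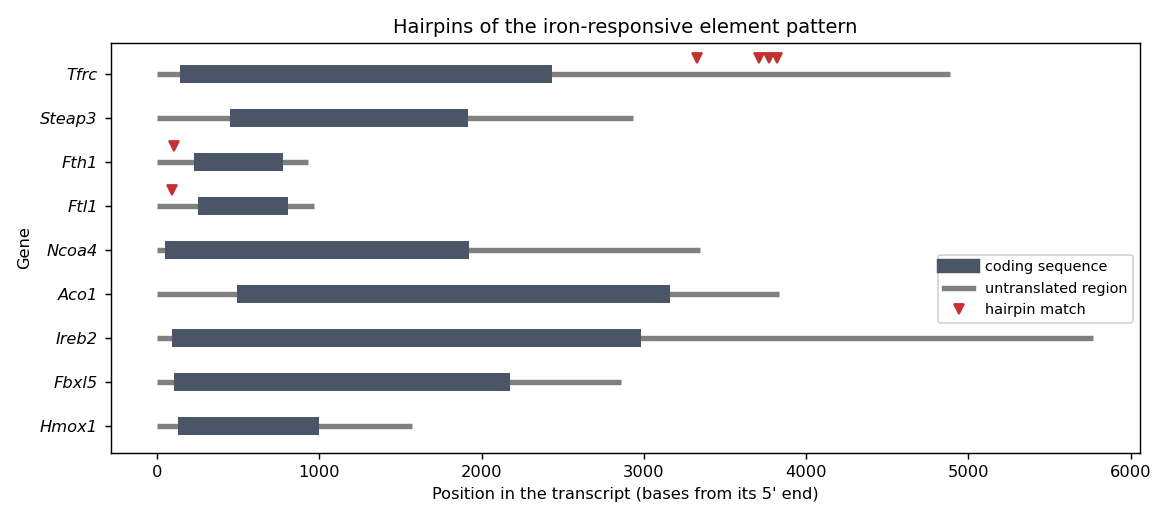
Position of hairpin matches in the annotated transcript of each iron handling gene, drawn to scale in bases from the 5′ end. Thick bars are coding sequence, thin bars are untranslated regions and triangles are matches: 1 in the 5′ UTR of each ferritin and 4 in the 3′ UTR of Tfrc.

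The cell labels were checked against marker genes in the 0 h libraries. Of 10 mature oligodendrocyte markers, 9 were listed for OLs, with summed levels of 6315 and 2936 FPKM, and 3 for OPCs, with sums of 39.2 to 57.5 FPKM. Progenitor markers stayed detectable in OLs, with sums of 659 and 724 FPKM against 308 to 578 in OPCs. Of 6 astrocyte markers 3 were listed for OPCs, with sums of 242 to 291 FPKM, and 5 for OLs. Of 5 neuron markers 1 was listed for OPCs, at 64.4 to 170.1 FPKM, and 2 for OLs, with sums of 178 and 164 FPKM, and none of 7 microglia or 4 pluripotent markers was listed for either. The OL replicates stood apart from each other: all 9 listed mature markers were lower in OL replicate 2, its astrocyte marker sum was 448 FPKM against 221, and Hmox1 was among the transcripts that differed most. FPKM values do not give read counts, so the depth of a library is unknown.

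At the end of labelling, Hmox1 and Fbxl5 were higher in OLs than in OPCs, and no iron handling gene was lower by the test. Hmox1, the heme oxygenase that opens the heme ring and frees its iron, was 6.63 times higher on the log2(FPKM + 1) scale. Fbxl5, the iron-sensing ubiquitin ligase subunit that marks IRP2 for degradation, was 1.72 times higher. The differences of Tfrc, Fth1, Ftl1, Ncoa4, Ireb2 and Aco1 did not pass the test.

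In OPCs the mean levels at 0 h fell into 3 ranges, on a scale corrected for transcript length. Fth1 (442 ± 116 FPKM, SD, n = 3) and Ftl1 (422 ± 94.2) were far above the rest, and their replicates overlapped. Tfrc (65.7 ± 7.97), Aco1 (57.9 ± 5.84), Ireb2 (45.6 ± 12.9) and Ncoa4 (35.7 ± 1.41) followed, each overlapping its neighbour in this order. Fbxl5 (21.5 ± 1.06) and then Hmox1 (14.3 ± 4.09) were lowest, with no overlap between them. In OLs the mean of Hmox1 was 154 ± 168 FPKM (SD, n = 2), and its place in the order differed between the replicates. It stood next below the ferritins in OL replicate 2, while in OL replicate 1 every other member but Steap3 was higher. Steap3 was by far the lowest at 1.82 ± 0.550 FPKM.

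Tfrc encodes the transferrin receptor, the main entry for iron. In the order of their numbers, OPC replicates had 74.6, 59.4 and 63.0 FPKM and OL replicates had 82.0 and 60.8 FPKM, and the same order is kept for the genes that follow. The groups overlapped, and the difference was 0.11 ± 0.24 log2 units (SE; limma, adjusted p = 0.752). Steap3, the endosomal reductase that prepares iron for export into the cytosol, was at 1.43 and 2.21 FPKM in the OL replicates, close to the 1 FPKM that the study required at 0 h.

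The ferritin heavy chain Fth1, which oxidises iron for storage, was at 572, 350 and 404 FPKM in OPCs and at 496 and 1129 FPKM in OLs. Its difference of 0.79 ± 0.38 log2 units did not pass (limma, adjusted p = 0.144), and it was 0.20 without OL replicate 2 and 1.38 without OL replicate 1. The light chain Ftl1, which stabilises the mineral core, was at 520, 332 and 414 FPKM in OPCs and at 369 and 715 FPKM in OLs (difference 0.31 ± 0.33 log2 units, limma adjusted p = 0.508). For both ferritins OL replicate 1 lay within the OPC range and OL replicate 2 above it. Ferritin messages have processed copies elsewhere in the genome, and reads shared with such copies make their levels uncertain. Ncoa4, the receptor that delivers ferritin for degradation, was at 37.0, 35.9 and 34.2 FPKM in OPCs and at 44.2 and 42.0 FPKM in OLs. Both OL values lay above all OPC values, but the difference of 0.27 ± 0.20 log2 units did not pass (limma, adjusted p = 0.348).

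Aco1 encodes IRP1, which serves as the cytosolic aconitase when it holds an iron-sulfur cluster. Its level was 63.5, 51.8 and 58.6 FPKM in OPCs and 46.4 and 45.2 FPKM in OLs. Both OL values were below all OPC values, with a difference of -0.33 ± 0.21 log2 units (limma, adjusted p = 0.267). Ireb2 encodes IRP2, whose protein is removed when iron is ample. Its level was 31.9, 57.5 and 47.2 FPKM in OPCs and 68.5 and 70.0 FPKM in OLs, again without overlap, and the difference was 0.63 ± 0.28 log2 units (limma, adjusted p = 0.120). It was 0.40 (adjusted p = 0.220) without OPC replicate 1, the lowest of the OPC values. The ratio of Aco1 to Ireb2 at 0 h was therefore 1.99, 0.900 and 1.24 in OPCs and 0.677 and 0.645 in OLs.

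Fbxl5 was at 20.3, 22.1 and 22.2 FPKM in OPCs and at 38.6 and 36.7 FPKM in OLs. The replicates of each cell type lay close together and the groups did not overlap, with a difference of 0.78 ± 0.20 log2 units (limma, adjusted p = 0.0243). With the replicate number as a term in the fit it was 0.80 (limma, adjusted p = 0.0908), though the numbers need not pair matching cultures. The size of this difference was 0.74 to 0.81 when OL replicate 1, OL replicate 2 or OPC replicate 3 was left out, and the adjusted p was then 0.124, 0.0904 and 0.0916. Hmox1 was at 19.0, 11.2 and 12.8 FPKM in OPCs and at 35.1 and 272 FPKM in OLs. Both OL values were above all OPC values, but they differed from each other 7.75-fold, more than OL replicate 1 differed from the OPCs. The difference between cell types was 2.73 ± 0.71 log2 units (limma, adjusted p = 0.0243), and it was 4.19 (adjusted p = 0.00355) without OL replicate 1, 1.27 (0.0643) without OL replicate 2, 2.58 (0.0505) without OPC replicate 2 and 2.67 (0.0605) without OPC replicate 3.

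Among all 8177 transcripts listed for both cell types, 13.8% were higher and 15.8% lower in OLs by the same test, against 2 and 0 of the 8 iron handling genes. Replicates did not overlap for 4 members that were higher in OLs (Hmox1, Fbxl5, Ireb2 and Ncoa4; 28% of all transcripts) and for 1 that was lower (Aco1; 31.4%). The median difference was 0.47 log2 units over the members and -0.01 over all transcripts. Scaling the 0 h libraries to equal sums moved the median of all transcripts to 0.28 and that of the members to 0.77, and Hmox1 and Fbxl5 still passed. Whether a level differs because of the share of cells of one type or because of RNA per cell cannot be told apart in these bulk samples.

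**Figure D2:**
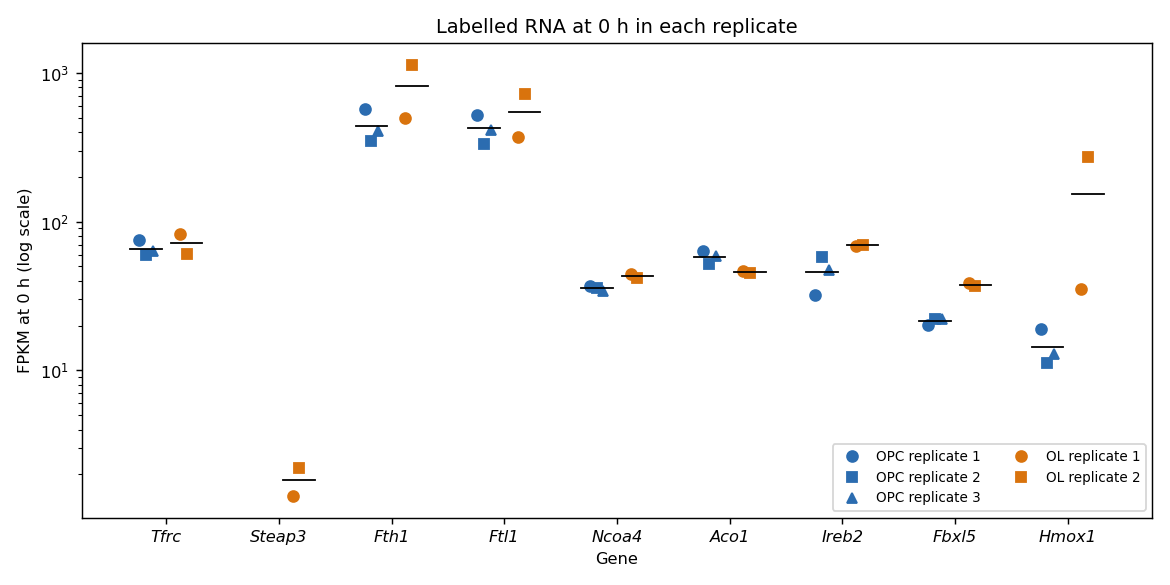
Labelled RNA at 0 h in FPKM (log axis) for each iron handling gene, with 1 point for each replicate of OPCs (blue, n = 3) and OLs (orange, n = 2) and black lines at the group means. Hmox1 is at 11.2 to 19.0 FPKM in OPCs and at 35.1 and 272 FPKM in OLs, while the Fbxl5 replicates lie close together within each cell type.

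The difference between the OL replicates was concentrated in part of the set. Hmox1 was 2.92 log2 units higher in OL replicate 2, rank 3 of 9751 transcripts, behind Id1 and Osgin1. Fth1 was 1.18 log2 units higher and Ftl1 0.95 higher, ranks 199 and 375. Ireb2, Aco1, Fbxl5 and Ncoa4 differed by 0.03, -0.04, -0.07 and -0.07 log2 units, and Tfrc by -0.43, against an SD of 0.48 over all transcripts. In the same pair of libraries Srxn1, which repairs oxidised peroxiredoxins, was at 9.13 and 56.4 FPKM, and the metallothionein Mt1 was at 349 and 1907 FPKM. Mature markers were lower in OL replicate 2, with Mbp at 3213 and 1295 FPKM. Of the listed astrocyte markers Gja1 differed most, at 40.1 and 188 FPKM. Slc1a3 was at 95.5 and 155 FPKM, Slc1a2 at 77.4 and 95.7, Gfap at 6.86 and 8.12 and Aldh1l1 at 1.72 and 2.44. The part of these genes in the levels of Hmox1 and ferritin was not tested. These comparison genes outside the marker lists (Id1, Osgin1, Srxn1 and Mt1) were chosen after their values were seen.

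**Figure D3:**
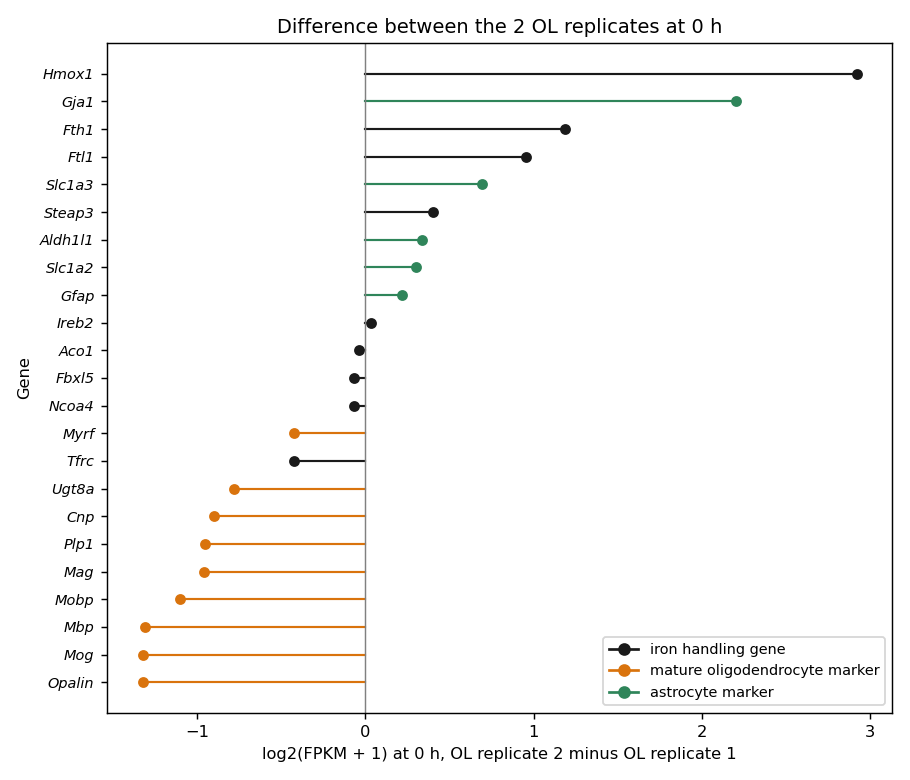
Difference in log2(FPKM + 1) at 0 h between OL replicate 2 and OL replicate 1 for the iron handling genes (black), mature oligodendrocyte markers (orange) and astrocyte markers (green), 1 point for each gene. Hmox1 (2.92), Fth1 (1.18) and Ftl1 (0.95) are higher in replicate 2, all 9 mature markers are lower, and Ireb2, Aco1, Fbxl5 and Ncoa4 lie near 0.

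During the chase the iron handling messages differed in course. Fth1 ended above its start and Ftl1 passed in neither direction, Tfrc and Aco1 had slopes above that of the median transcript in all 5 replicates and Ncoa4 in 4 of 5, Ireb2 and Fbxl5 fell more steeply than the median transcript, and Hmox1 fell in OPCs but did not pass in OLs. For slopes within a cell type the library was the unit of the fit, with the replicate as a block. The SE and p of these slopes describe the scatter of libraries about a line. They do not measure how far the slope varies between biological replicates. Levels are given as a share of the same replicate's 0 h level after spike-in scaling by the authors. At 6 h the median over all transcripts lay between 11.0% and 17.7% among OPC replicates and between 31.5% and 36.6% among OL replicates.

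At 6 h Fth1 stood at 128%, 169% and 186% of its 0 h level in OPCs and at 179% and 124% in OLs. Every replicate of both cell types was above its start, a rise that decay alone does not give. Its slope was 0.13 ± 0.04 log2 units per h in OPCs (limma, adjusted p = 0.00536) and 0.14 ± 0.05 in OLs (adjusted p = 0.0162). Rising at this threshold were 4.31% of all transcripts in OPCs and 1.5% in OLs. The call was lost without OPC replicate 3 (0.10, adjusted p = 0.0892), without OL replicate 1 (0.09, adjusted p = 0.224) and in OPCs when the 6 h libraries were left out (0.08, adjusted p = 0.251). Ftl1 was at 63.6%, 131% and 97.8% in OPCs and at 108% and 85.9% in OLs at 6 h, above the median of all transcripts in every replicate, and its slopes of 0.02 ± 0.04 and 0.03 ± 0.05 log2 units per h did not pass (limma, adjusted p = 0.627 and 0.642). Because both subunits shared each library, their ratio does not depend on the spike-in scale. The Fth1 to Ftl1 ratio went from 1.10, 1.05 and 0.974 at 0 h to 2.22, 1.37 and 1.85 at 6 h in OPCs, and from 1.34 and 1.58 to 2.22 and 2.28 in OLs, a higher ratio at 6 h in 5 of 5 replicates.

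Tfrc was at 32.8%, 37.7% and 74.1% of its 0 h level at 6 h in OPCs and at 89.2% and 74.0% in OLs. OPC replicate 3 lay close to OL replicate 2, and the other OPC replicates were much lower. The slope was -0.20 ± 0.05 log2 units per h in OPCs (limma, adjusted p = 0.000591) and -0.03 ± 0.04 in OLs (adjusted p = 0.507), and the difference of 0.17 ± 0.08 did not pass (adjusted p = 0.153). Relative to the median of each library Tfrc rose, by 0.24 log2 units per h in OPCs and 0.20 in OLs. Ncoa4 was at 41.1%, 34.9% and 65.8% in OPCs and at 36.0% and 72.3% in OLs, with overlapping groups. Its slopes were -0.16 ± 0.05 log2 units per h in OPCs and -0.14 ± 0.05 in OLs (limma, adjusted p = 0.00571 and 0.0184), and the call was lost without OPC replicate 2 (-0.10, 0.129), without OL replicate 1 (-0.08, 0.267) and in both cell types without the 6 h libraries. Steap3 was listed at 0 at 4 h in both OL replicates and at 6 h in OL replicate 1, so its fall (-0.28 ± 0.06 log2 units per h; limma, adjusted p = 0.000631) describes a message near the lower limit of the table, and its size depends on the pseudocount (-0.76 with 0.1).

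Ireb2 and Fbxl5, which both take part in iron sensing and its control, declined further. Ireb2 was at 10.1%, 5.41% and 7.79% of its 0 h level at 6 h in OPCs and at 16.6% and 25.9% in OLs. Both OL values were above all OPC values, and the slopes were -0.64 ± 0.07 and -0.36 ± 0.04 log2 units per h (limma, adjusted p = 3.42e-07 and 3.82e-06). Fbxl5 was at 4.47%, 2.66% and 5.79% in OPCs and at 11.5% and 18.5% in OLs, with slopes of -0.64 ± 0.07 and -0.41 ± 0.05 (adjusted p = 4.70e-07 and 1.42e-05). Ireb2 and Fbxl5 fell more steeply than the median transcript in all 5 replicates, and their decline passed the test after each library was centred on its median, at -0.20 log2 units per h for both in OPCs and -0.12 and -0.17 in OLs. Aco1, which encodes the iron regulatory protein IRP1, fell less than the median transcript in all 5 replicates. It went to 21.3%, 24.4% and 40.6% in OPCs and to 38.0% and 55.4% in OLs, with overlapping groups. The slopes of Aco1 were -0.26 ± 0.05 and -0.16 ± 0.05 log2 units per h (limma, adjusted p = 0.000126 and 0.00754), and the call was lost in OLs without OL replicate 2 (adjusted p = 0.0790) and in both cell types without the 6 h libraries (0.187 and 0.380). The ratio of Aco1 to Ireb2 at 6 h was 4.20, 4.06 and 6.46 in OPCs and 1.55 and 1.38 in OLs, higher than at 0 h in 5 of 5 replicates. All OPC ratios lay above both OL ratios at 6 h, as they had at 0 h.

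In OPCs Hmox1 was at 73.0%, 99.1% and 71.6% of its 0 h level at 1 h and at 52.7%, 67.5% and 51.0% at 4 h. At 6 h it was at 12.2% in OPC replicate 1 and listed at 0 in the other OPC replicates, where 21.6% and 16.4% of all transcripts were also listed at 0. In OLs it was at 268% and 127% at 4 h and at 107% and 128% at 6 h. Every OPC replicate ended far below its start, and both OL replicates ended above theirs. The slope was -0.51 ± 0.08 log2 units per h in OPCs (limma, adjusted p = 1.72e-05) and 0.08 ± 0.06 in OLs (adjusted p = 0.248). Without the 6 h libraries it was -0.17 (adjusted p = 0.0276) and 0.21 (adjusted p = 0.0486).

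In all, 6 of 8 members fell in OPCs (81.7% of all transcripts did) and 5 of 9 fell in OLs (68.4%). In OPCs these were Tfrc, Ncoa4, Aco1, Ireb2, Fbxl5 and Hmox1, and in OLs Steap3, Ncoa4, Aco1, Ireb2 and Fbxl5. Over the members the slope had a median of -0.23 log2 units per h in OPCs, where that of all transcripts was -0.38, and of -0.14 in OLs, where it was -0.20. After centring on the median of each library, 5 members rose in each cell type, where 39.8% of all transcripts rose in OPCs and 31.2% in OLs. They were Fth1, Ftl1 (0.46, adjusted p = 2.87e-07), Tfrc, Ncoa4 and Aco1 in OPCs, and Fth1, Ftl1 (0.26, adjusted p = 0.000174), Tfrc, Ncoa4 and Hmox1 (0.31, adjusted p = 0.000971) in OLs, by limma. In the same fits Hmox1 in OPCs (-0.07, adjusted p = 0.468) and Steap3 in OLs (-0.05, adjusted p = 0.567) no longer passed. The direction of the declines of Tfrc, Aco1 and Ncoa4 therefore holds on the spike-in scale alone. Without the 6 h libraries 4 of 8 members fell in OPCs and 3 of 9 in OLs, where 67.4% and 46.7% of all transcripts fell in the same fits.

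**Figure D4:**
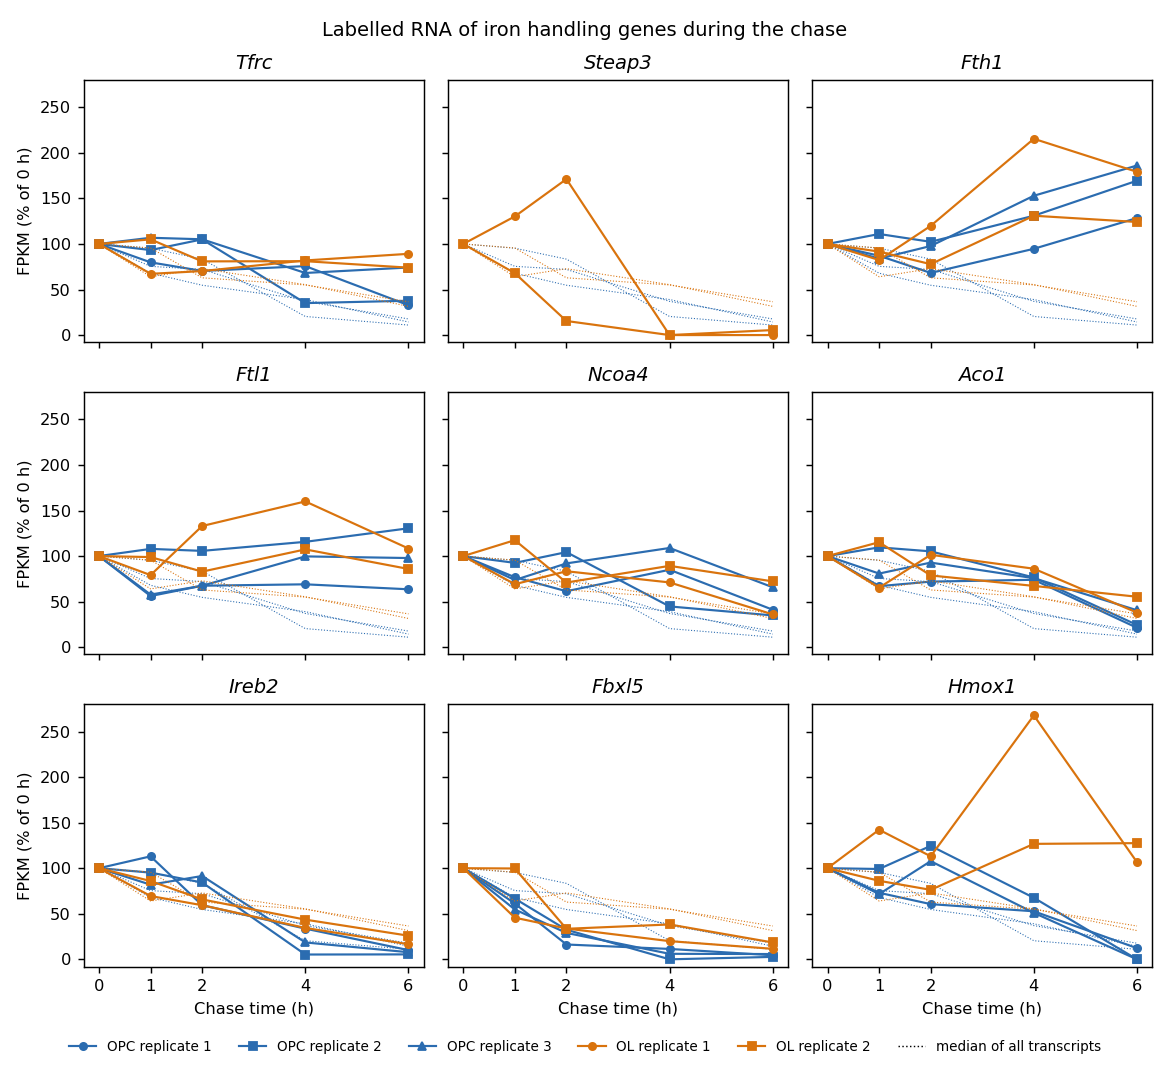
Level of each iron handling gene during the chase as a percent of the same replicate's 0 h FPKM (linear axis), for 3 OPC replicates (blue) and 2 OL replicates (orange), with dotted lines for the median over all transcripts of each replicate. Fth1 ends above 100% in all 5 replicates, Ireb2 and Fbxl5 end at or below 25.9%, and Hmox1 ends at 0 to 12.2% in OPCs and at 107% and 128% in OLs.

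Whether the course over the chase differed between the cell types was asked with 1 slope for each replicate, so that the replicate is the unit. Decay alone gives no rise, so a slope above 0 is not a rate of decay. The source of such rises was not tested. Hmox1 had slopes of -0.38, -0.57 and -0.58 log2 units per h in OPCs and 0.06 and 0.10 in OLs, falling in every OPC replicate and rising in every OL replicate. The difference of 0.59 ± 0.08 log2 units per h passed the test (limma, adjusted p = 0.00275). It was 0.38 after centring on the median of each replicate (adjusted p = 0.0201) and 0.38 without the 6 h libraries, in which the OPC zeros lie (adjusted p = 0.0408). Without OL replicate 2 it was 0.57 (adjusted p = 0.0525), and with a pseudocount of 0.1 it was 0.92 (adjusted p = 0.0572).

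Ireb2 had slopes of -0.52, -0.78 and -0.61 log2 units per h in OPCs and -0.40 and -0.32 in OLs. The groups did not overlap, and the difference of 0.28 ± 0.09 passed narrowly (limma, adjusted p = 0.0431). It was 0.07 (adjusted p = 0.579) after centring, and leaving out any replicate but OPC replicate 1 also ended the call, with adjusted p from 0.0704 to 0.253, as did a pseudocount of 0.1 (0.116) and leaving out the 6 h libraries (0.150). Fbxl5 had slopes of -0.57, -0.76 and -0.59 in OPCs and -0.44 and -0.37 in OLs, and its difference of 0.23 ± 0.08 did not pass (limma, adjusted p = 0.0622). After centring it was 0.0221 (adjusted p = 0.856). It passed without OPC replicate 1 (0.27, 0.0427) and without the 6 h libraries (0.45, 0.0430), and the adjusted p was 0.203 and 0.296 without OL replicate 1 or 2 and 0.126 with a pseudocount of 0.1.

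By this test 23.7% of all 8177 transcripts fell more slowly in OLs and 0.0856% fell faster, against 2 and 0 of 8 members. Without OL replicate 1, 88 transcripts differed, and without OL replicate 2, 0 did by limma (2082 at an unadjusted p under 0.05). For 5 members (Hmox1, Ireb2, Fbxl5, Tfrc and Aco1) both OL slopes lay above all OPC slopes, which was so for 50.9% of all transcripts, and for 0 members both lay below (3.27%). The median difference was 0.13 log2 units per h over the members and 0.14 over all transcripts.

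**Figure D5:**
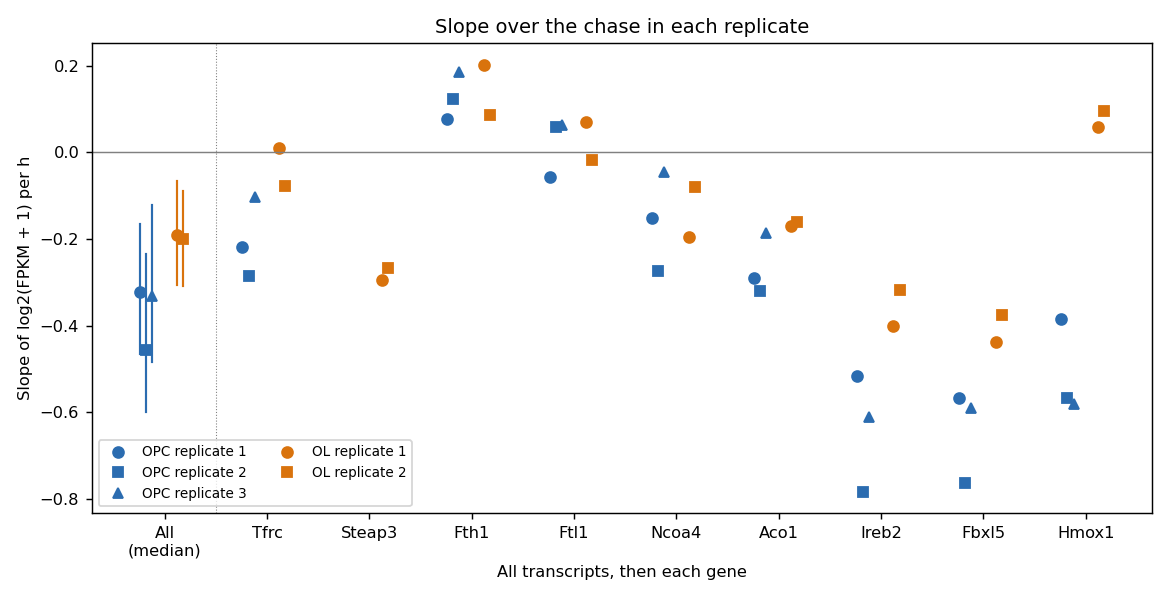
Slope of log2(FPKM + 1) per h of chase in each OPC replicate (blue) and OL replicate (orange), first for the median of all transcripts (vertical lines span the quartiles) and then for each iron handling gene. Hmox1 lies below 0 in all OPC replicates and above 0 in both OL replicates, and Fth1 lies above 0 in all 5.

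The deposited half-lives gave a coarser view, because estimates over 6 h were set to a ceiling of 6 h. Of 42 half-lives of members, 23 were at the ceiling. Another 4 were at values that the fit returns whatever the measured levels are. A curve fitted by least absolute deviations to points at 1, 2, 4 and 6 h settles at 1.96 h when the first points lie above it and the last points below, and 3 further arrangements settle at other fixed values. In OPC replicate 2, 25.6% of all half-lives were within 0.001 h of 1.96 h, and 27.2% were at any of the 4 values, while the other OPC replicates had 5.87% and 8.74% and the OL replicates 0.928% and 2.62%.

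Ireb2 had half-lives of 2.55, 1.96 and 1.96 h in OPCs and 2.60 and 3.30 h in OLs, and the 1.96 h values are such fixed ones. The groups did not overlap, but the difference of 0.46 ± 0.19 log2 units did not pass (limma, adjusted p = 0.297) and was 0.28 without OL replicate 2. Steap3 had 1.96 and 0.760 h in OLs, both fixed values, so neither depends on the size of its measured levels.

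Fbxl5 had the shortest half-lives of the members listed for both cell types, at 1.28, 1.23 and 1.12 h in OPCs and 1.28 and 2.46 h in OLs. Its OL replicate 1 equalled OPC replicate 1 at this precision, and the difference was 0.56 ± 0.33 log2 units (limma, adjusted p = 0.465). It was 0.0822 (adjusted p = 0.859) without OL replicate 2 and 1.03 (adjusted p = 0.103) without OL replicate 1. Hmox1 was at 2.77, 6 and 4.12 h in OPCs, where OPC replicate 2 reached the ceiling although its 6 h value was listed at 0, and at the ceiling in both OL replicates (difference 0.55 ± 0.39 log2 units, limma adjusted p = 0.518, and 0.27 without OPC replicate 1). Tfrc was at 3.95, 4.26 and 6 h in OPCs, Ncoa4 at 4.68, 3.95 and 6 h and Aco1 at 4.21, 6 and 6 h, and all were at the ceiling in OLs. Fth1 and Ftl1 were at the ceiling in all 5 replicates, where no difference can be measured.

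None of the 8 members differed in half-life by limma (0 at an adjusted p under 0.05 and 0 at an unadjusted p under 0.05), while 3.39% of 8112 transcripts were longer and 0.148% shorter in OLs. Replicates did not overlap for 2 members, Ireb2 and Fbxl5, both longer in OLs, which was so for 35.9% of all transcripts, although for Fbxl5 the nearest replicates were closer than the 0.01 h tolerance of the refit, and for 0 members shorter in OLs (2.01%). The median difference was 0.34 log2 units over the members and 0.37 over all transcripts. With the ceiling raised to 24 h in a refit, Hmox1 differed by 2.47 log2 units (adjusted p = 0.0810), still without passing.

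The other genes of iron metabolism were covered by lists of 81 genes, of which 60 were listed and 50 could be compared between the cell types. At 0 h 3 of the 50 were higher and 4 lower in OLs, beside 13.8% and 15.8% of all transcripts. Neo1, a receptor that takes part in control of the iron hormone hepcidin, was higher in OLs at 0 h by 1.06 ± 0.20 log2 units (limma, adjusted p = 0.00780), while the porphyrin exporter Abcg2 was lower, at -1.27 ± 0.23 (adjusted p = 0.00604). These were the 2 calls among 4 genes of export and its control.

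In heme synthesis and breakdown, genes moved in both directions at 0 h. Uros was higher by 1.15 ± 0.27 log2 units (limma, adjusted p = 0.0160), and the porphyrin transporter Abcb6 was lower, at -1.49 ± 0.22 (adjusted p = 0.00231). Among 20 genes of iron-sulfur cluster assembly, the electron donor Fdx1 was higher by 0.97 ± 0.30 (adjusted p = 0.0416). Among 11 genes of uptake and intracellular transport, the mitochondrial iron importer Slc25a37 was lower, at -0.77 ± 0.25 (adjusted p = 0.0496).

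By slope, 14 of the 50 genes fell more slowly in OLs and 0 faster, against 23.7% and 0.0856% of all transcripts. They were 8 of 20 in iron-sulfur cluster assembly, 3 of 13 in heme synthesis and breakdown, 3 of 11 in uptake and intracellular transport and none in the remaining lists. In half-life Cpox, which acts late in heme synthesis, was longer in OLs by 1.25 ± 0.07 log2 units (limma, adjusted p = 0.0188). It was at 1.79, 1.96 and 1.80 h in OPCs and 4.61 and 4.20 h in OLs. The call was lost with the replicate number as a term in the fit, which left 0 calls among all transcripts. It was also lost after centring, which left 1 call, shorter in OLs.

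Across the 25 libraries the transcripts whose log2(FPKM + 1) followed Tfrc most closely were Rhbdd2 (Pearson's r = 0.904), Hdgfl2 (0.883) and Dbndd2 (0.874), out of 8177 transcripts. The libraries share replicates and spike-in scales, so this is a description of these libraries.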

How the data were processed

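OPCs (3 replicates) and OLs (2 replicates) were sampled at 5 times of chase, 25 of 26 samples, and 1 control without biotin was not analysed here. Per the study's methods and processing notes, the authors aligned reads to GRCm38 with HISAT2 2.1.0 and tabulated FPKM with StringTie 1.3.5 over canonical coding transcripts. The deposited FPKM values after 0 h were scaled by the authors to a 5-EU-labelled spike-in, with 1 factor for each library, so an error in it moves every transcript alike. Transcripts needed at least 1 FPKM at 0 h. The deposited half-lives, in hours, are single exponential fits by least absolute deviations with a ceiling of 6 h. A refit was within 0.01 h for 98.2% to 99.9% of transcripts.

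Tests used limma 3.58.1 in R 4.3.3 over all listed transcripts, with Benjamini-Hochberg adjustment and a threshold of 0.05: log2 half-life, log2(FPKM + 1) at 0 h, slope of log2(FPKM + 1) over time within a cell type with the replicate as a block (the same cultures), and 1 slope for each replicate between cell types. The scripts were tested on simulated data. The 0 h columns were read as FPKM not scaled to the spike-ins. With 3 replicates against 2, an exact permutation test cannot give a p under 0.1, so none was run. Genes named outside the members were up to 4 of each list with the largest change past the threshold at 0 h or in half-life, and the 3 transcripts most like Tfrc. The members and lists were chosen with earlier results of these data known. Alternatives were the pseudocount, a filter on mean 0 h FPKM, centring and rescaling of libraries, the half-life ceiling, the 6 h libraries, the replicate block, and each replicate left out. Some results of the wider lists are not reported here.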

Additional observations from a re-analysis of the deposited data

Results flagged for a closer look

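The slope over the chase differed between the cell types for 2 members of 8 by the test of the difference itself, where 23.7% of all transcripts fell more slowly in OLs and 0.0856% faster. For Hmox1 the OL minus OPC difference was 0.588 log2 units per h (0.59 ± 0.08, limma adjusted p = 0.00275), with a fall in 3 of 3 OPC replicates and a rise in 2 of 2 OL replicates. The part played by the markers that differ between the OL replicates was not tested. For Ireb2 the difference was 0.278 log2 units per h (0.28 ± 0.09, limma adjusted p = 0.0431), with a fall in all 5 replicates that was slower in both OL replicates. After centring on the median of each replicate it was 0.07 (adjusted p = 0.579) for Ireb2 and 0.38 (adjusted p = 0.0201) for Hmox1. The groups of 3 and 2 replicates are too small for a search for outlying samples.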

How the results depend on the processing

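Results of single members, called or not, kept their direction and side of the threshold in 299 of 366 comparisons of a value with its alternative. They lost a call in 29, gained it in 6 and turned in direction in 32. A result without a call in either fit counted as kept unless it turned. Half-life differences fixed by the ceiling (Fth1 and Ftl1) could not count as turned. A result that turned and also lost its call counted as turned. Left out in turn, single replicates gave 167 to 236 transcripts with a different half-life (287 with all), 896 to 2605 at 0 h (2421) and 0 to 2209 by slope (1944), the 0 being without OL replicate 2. Members called then numbered 0 to 2 at 0 h and 0 to 3 by slope. A lone OL replicate is assumed to vary like the OPCs.

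Centring on library medians left 1 half-life difference and 1011 slope differences (199 slower and 812 faster in OLs, against 1937 and 7), 1 of them a member, and called 4578 transcripts in OPCs (3392 rising, 1186 falling, against 368 and 6966) and 4391 in OLs (3046 rising, 1345 falling, against 146 and 6668). These shifts follow from removing the library median. Rescaling to the mean decay curve gave 88 longer and 151 shorter half-lives, against 275 and 12, and equal library sums at 0 h gave 1620 higher and 715 lower, against 1127 and 1294. A ceiling of 24 h gave 158 half-life differences, and refits without the 6 h libraries gave 13. Leaving out the 6 h libraries, an alternative chosen after seeing the data, called 1240 transcripts by slope and 4 members in the OPC decline. A pseudocount of 0.1 called 569 transcripts and 0 members by slope. Other causes were not tested.

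Centring turned the half-life differences of Tfrc (-0.54), Aco1 (-0.73), Ireb2 (-0.45), Fbxl5 (-0.35), Hmox1 (-0.35) and Ncoa4 (-0.58), the declines of Tfrc (0.24), Aco1 (0.17) and Ncoa4 (0.28) in OPCs and (0.20, 0.0701 and 0.0978) in OLs, and the slope differences of Tfrc (-0.0431), Fth1 (-0.20), Ftl1 (-0.21), Aco1 (-0.11) and Ncoa4 (-0.19). The mean decay curve turned the half-life differences of Tfrc (-0.0939), Aco1 (-0.28) and Ncoa4 (-0.28), and refits without 6 h those of Tfrc (-0.0772) and Ireb2 (-0.34). None of these members had passed the half-life test. With a replicate left out, the 0 h difference ranged from -0.10 to 0.32 for Tfrc and from -0.17 to 0.78 for Ftl1, the OL slope from -0.0775 to 0.0108 for Tfrc and from -0.0180 to 0.0703 for Ftl1, and the slope difference from -0.0414 to 0.0737 for Fth1, -0.0405 to 0.0478 for Ftl1 and -0.0386 to 0.0771 for Ncoa4.

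OPC and OL replicates share the numbers 1 and 2, but which cultures correspond is not given. With the number as a replicate block, 0 transcripts differed in half-life by limma (1554 at an unadjusted p under 0.05), 1932 at 0 h with 1 member (Hmox1, while Fbxl5 had 0.80, adjusted p = 0.0908) and 2286 by slope. Without the block the declines called 7312 transcripts in OPCs and 6389 in OLs, where Fth1 had an adjusted p of 0.0842.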

Other observations

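Ferritin messages took up a larger share of the summed FPKM at 6 h of chase than at 0 h. Fth1 and Ftl1 together made up 0.253%, 0.174% and 0.202% of the summed FPKM of listed transcripts at 0 h in OPC replicates 1, 2 and 3, and 0.400%, 0.389% and 0.440% at 6 h. In OLs they made up 0.247% and 0.539% at 0 h and 0.503% and 0.894% at 6 h, so the share was higher at 6 h in 5 of 5 replicates. The rise was not steady. The share was below its 0 h value at 1 h in OPC replicate 3 (0.196%) and OL replicate 2 (0.518%) and at 2 h in OPC replicate 1 (0.252%). This share does not depend on the spike-in scale, and no test was run on it. Any transcript that falls less than the sum gains share, and how many did was not counted.

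Fixed values of the half-life fit also reached other genes of the wider lists. Cpox, called longer in OLs, had 1.96 h in OPC replicate 2, and Alas1, the enzyme that starts heme synthesis, had 1.29, 1.96 and 0.704 h in OPCs, of which the last 2 are fixed values, against 5.09 and 5.46 h in OLs. In OLs its slope was less negative, with a difference of 0.55 ± 0.08 (log2 per h; adjusted p = 0.00275 with limma), and its half-life difference of 2.12 ± 0.51 log2 units did not pass (adjusted p = 0.135). Alas1 was chosen after its values were seen.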
